A study of Mus musculus with 8 samples.

Results

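Sirt7 lies close to the distal end of mouse chromosome 11, with 39 protein-coding genes beyond it of the 1609 in the gene table for that chromosome. The genes described here are 10 of its neighbours there, namely Actg1, Gcgr, Mcrip1, Arhgdia, Alyref, Anapc11, Mafg, Notum, Rac3 and Dcxr. They were chosen by name, with the differences between SIRT7 knockout (KO) and wild-type (WT) livers already known, so their differences between the genotypes are given as a description and not as a test. Every probe set (a group of short probes read as 1 value) annotated to exactly 1 of these symbols was kept. This gave 10 probe sets for 9 of the 10 genes, of 22626 probe sets and 12393 genes tested on the arrays. Arhgdia had no probe set with a single symbol and was not analysed here, and Mafg had 2 probe sets.

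Liver RNA from 4 SIRT7 KO and 4 WT mice was hybridised to Affymetrix mouse GeneChip arrays, with 1 array for each sample. SIRT7 is a histone deacetylase, and mice lacking it served in the study as a model of fatty liver disease on a chow diet. The study dealt with the hepatic stress response and the growth hormone axis in this model, and the arrays allow hepatic expression to be compared between the genotypes. The study calls its wild-type controls littermates where it followed up the arrays by PCR. For the array animals themselves, the sources used here do not state the design of the deleted Sirt7 allele, the strain, the age, which animals shared a litter or the date of each array. The p-values therefore cover only the variation among these 8 samples.

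Genes that lie side by side on a chromosome are inherited together, and some share a stretch of DNA from which both are transcribed. A knockout mouse therefore carries the altered allele together with the segment of chromosome around it. In these mice the loss of SIRT7 and the origin of that segment cannot be told apart. The genes around Sirt7 have unrelated functions: Gcgr encodes the glucagon receptor, through which the hormone drives hepatic glucose output; Notum and Dcxr encode enzymes of Wnt signalling and of carbonyl metabolism; and Actg1 encodes cytoplasmic gamma-actin.

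The promoter windows of the 4 changed genes that have one, and the stretch shared by Alyref and Anapc11, are shown so that the start regions behind the values below can be compared. They are RefSeq sequences of the GRCm38.p6 assembly, running in each gene from 250 bases before to 50 bases after its start, and 9 of the 10 genes matched, Notum being the exception. All are written 5′ to 3′ on the strand of the gene, which for the shared stretch is that of Anapc11. Capitals mark matches, on either strand, to the TATA box (TATAAA), the CCAAT box (CCAAT), the GC box (GGGCGG), an E box (CACGTG), the cAMP response element (TGACGTCA) or the CArG box, and neighbouring matches may overlap.
Gcgr, chr11:120530477-120530776, plus strand: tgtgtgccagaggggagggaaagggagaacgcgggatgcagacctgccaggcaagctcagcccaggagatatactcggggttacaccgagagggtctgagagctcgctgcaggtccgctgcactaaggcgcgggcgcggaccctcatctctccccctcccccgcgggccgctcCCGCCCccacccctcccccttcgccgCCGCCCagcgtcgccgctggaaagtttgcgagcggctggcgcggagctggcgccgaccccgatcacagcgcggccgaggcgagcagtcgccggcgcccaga
Mcrip1, chr11:120549673-120549972, minus strand: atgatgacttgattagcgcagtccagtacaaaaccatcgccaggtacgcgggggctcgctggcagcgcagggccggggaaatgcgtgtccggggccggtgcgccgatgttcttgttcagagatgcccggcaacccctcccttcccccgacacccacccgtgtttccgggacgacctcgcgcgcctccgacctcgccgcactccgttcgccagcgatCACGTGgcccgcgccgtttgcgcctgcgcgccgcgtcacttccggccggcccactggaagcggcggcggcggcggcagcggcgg
Actg1, chr11:120348446-120348745, minus strand: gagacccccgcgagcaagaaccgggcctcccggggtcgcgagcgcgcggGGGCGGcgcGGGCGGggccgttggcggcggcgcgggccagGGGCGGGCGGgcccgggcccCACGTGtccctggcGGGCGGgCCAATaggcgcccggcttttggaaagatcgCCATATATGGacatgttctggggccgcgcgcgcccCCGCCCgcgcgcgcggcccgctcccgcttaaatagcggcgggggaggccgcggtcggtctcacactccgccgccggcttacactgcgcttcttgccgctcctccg
Dcxr, chr11:120727235-120727534, minus strand: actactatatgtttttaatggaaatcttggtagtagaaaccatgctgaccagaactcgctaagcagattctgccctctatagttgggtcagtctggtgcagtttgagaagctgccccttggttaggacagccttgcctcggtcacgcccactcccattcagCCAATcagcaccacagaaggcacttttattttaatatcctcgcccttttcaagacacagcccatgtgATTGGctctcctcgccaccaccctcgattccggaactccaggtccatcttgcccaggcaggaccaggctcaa
Alyref and Anapc11, chr11:120598316-120598470, plus strand: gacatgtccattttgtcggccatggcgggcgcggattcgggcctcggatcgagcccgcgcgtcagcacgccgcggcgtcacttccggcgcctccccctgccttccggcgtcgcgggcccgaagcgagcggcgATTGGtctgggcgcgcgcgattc

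The Gcgr window held 2 GC boxes and 34 CpG dinucleotides, and the Mcrip1 window held 1 E box and 44 CpG dinucleotides. A second listed start of Mcrip1, not shown, gave a window with 1 E box and 42 CpG dinucleotides. Gcgr and Mcrip1 are adjacent and are read toward each other, so their start regions are separate. The Actg1 window was the richest of the 4 in matches, with 6 GC boxes, 1 CCAAT box, 1 E box, 1 CArG box (the element bound by serum response factor) and 50 CpG dinucleotides. The Dcxr window held 2 CCAAT boxes and only 7 CpG dinucleotides, with 50.7% of its bases G or C, against 71.7% for Gcgr, 70.7% for Mcrip1 and 77.3% for Actg1. Over 32851 mouse promoters of the same length, the median was 7 CpG dinucleotides and 52.7% G or C. GC boxes occurred in 35.7% of those promoters, CCAAT boxes in 37.4%, TATA boxes in 13.6%, E boxes in 7.15%, cAMP response elements in 1.79% and CArG boxes in 1.63%. None of the 6 motifs was found in all 4 windows. Alyref and Anapc11 are read away from each other, and their nearest starts are 56 bases apart, so that 155 bases belong to both promoter windows and hold 1 CCAAT box. A second Anapc11 start, not shown, lies 167 bases from that of Alyref. Its window shares 266 bases with that of Alyref, which hold 1 TATA box, 1 CCAAT box and 1 GC box.

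The target gene was checked first. Sirt7 (probe set 1424238_at) had log2 expression of 4.73, 4.53, 4.40 and 4.90 on the SIRT7 KO arrays, against 8.98, 8.97, 8.88 and 8.57 on the WT arrays. All 8 arrays were therefore in accord with their labels. The difference was -4.21 ± 0.13 (SE) on the log2 scale, or 18.5-fold (limma, adjusted p = 9.2e-07). The lower quartile of probe set means was 4.56, close to the SIRT7 KO level, so background limits this fold change.

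Of the 10 probe sets of the neighbours, 5 were called different between the genotypes, meaning a limma p under 0.15 after Benjamini-Hochberg adjustment over all probe sets. On the whole array, 4.31% of probe sets were called. Actg1, Gcgr and Mcrip1 were higher in SIRT7 KO livers (1.92% of all probe sets were called higher), and Notum and Dcxr were lower (2.39% of all probe sets). The same 5 probe sets were those whose SIRT7 KO and WT values did not overlap, a pattern seen in 9.35% of all probe sets. Because the genes were chosen from this contrast, these counts describe the list and are not evidence of a change in it. The count was 3 once SIRT7 KO array 4 was left out and 2 when WT array 1 was, fits in which calls on the whole array numbered 267 and 222, against 975 with all 8 arrays. The median size of the difference was 0.41 over the 10 probe sets and 0.092 over all probe sets, and each of the 5 called differences corresponded to between 1.49-fold and 1.62-fold.

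Gcgr (1450127_a_at) showed the largest difference among them. Its log2 expression was 11.35, 11.34, 11.38 and 11.24 on the SIRT7 KO arrays, against 10.66, 10.64, 10.69 and 10.54 on the WT arrays. The lowest SIRT7 KO value thus lay well above the highest WT value, and neither group held an array that stood apart. The means were 11.33 ± 0.060 in SIRT7 KO and 10.63 ± 0.067 in WT livers (SD, n = 4 each), a difference of 0.70 ± 0.065 (SE) or 1.62-fold. This difference was 10.9 times the pooled SD of the 2 groups. With each array left out in turn it stayed between 0.66 and 0.72.

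Mcrip1 (1460690_at), which encodes a protein that binds the corepressor CtBP and is regulated by ERK, is the next gene. Its values were 8.28, 8.20, 8.30 and 8.42 on the SIRT7 KO arrays, against 7.60, 7.79, 7.58 and 7.55 on the WT arrays. WT array 2 was the highest of the WT arrays and still lay below all 4 SIRT7 KO arrays. The means were 8.30 ± 0.090 in SIRT7 KO and 7.63 ± 0.11 in WT livers (SD, n = 4 each), and the difference was 0.67 ± 0.078 (SE), or 1.60-fold. Leaving out single arrays gave differences between 0.63 and 0.73, all of them called.

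Actg1 (1415779_s_at) lies 21 genes before Sirt7, farther away than any other gene of the list. Its probe set name ends in _s_at, the Affymetrix mark for probes that may match transcripts of several genes, so RNA of other actins may contribute to it. Expression was 11.65, 12.05, 11.74 and 11.90 on the SIRT7 KO arrays, against 11.17, 11.60, 11.43 and 10.81 on the WT arrays. The groups did not overlap, but SIRT7 KO array 1 and WT array 2 nearly met, and WT array 4 was the lowest. The means were 11.84 ± 0.18 in SIRT7 KO and 11.25 ± 0.34 in WT livers (SD, n = 4 each), a difference of 0.58 ± 0.16 (SE) or 1.50-fold. Without WT array 4 the difference was 0.44, and Actg1 was called in only 1 of the 8 fits that left out 1 array, the one without WT array 2.

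Notum and Dcxr lie on the other side of Sirt7 and were lower in SIRT7 KO livers. Notum (1451857_a_at) encodes a secreted carboxylesterase that removes the lipid of Wnt proteins and so inactivates them. It had 7.03, 6.96, 6.90 and 6.70 on the SIRT7 KO arrays, against 7.53, 7.53, 7.75 and 7.22 on the WT arrays. WT array 4 was the lowest of its group and remained above every SIRT7 KO array. The means were 6.90 ± 0.14 in SIRT7 KO and 7.51 ± 0.22 in WT livers (SD, n = 4 each), and the difference was -0.61 ± 0.12 (SE), or 1.52-fold. The call of Notum was lost without SIRT7 KO array 4, where the difference was -0.54, and without WT array 1, where it was -0.60.

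Dcxr (1419456_at) encodes dicarbonyl and L-xylulose reductase, an enzyme of the glucuronate pathway that also reduces reactive carbonyls. Its values were 10.24, 9.87, 10.11 and 10.22 on the SIRT7 KO arrays, against 10.80, 10.85, 10.71 and 10.40 on the WT arrays. WT array 4 was again the lowest WT array, close to the highest SIRT7 KO array but above it. The means were 10.11 ± 0.17 in SIRT7 KO and 10.69 ± 0.20 in WT livers (SD, n = 4 each), a difference of -0.58 ± 0.12 (SE) or 1.49-fold. Without WT array 1 the difference was -0.54 and the call was lost.

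**Figure D1:**
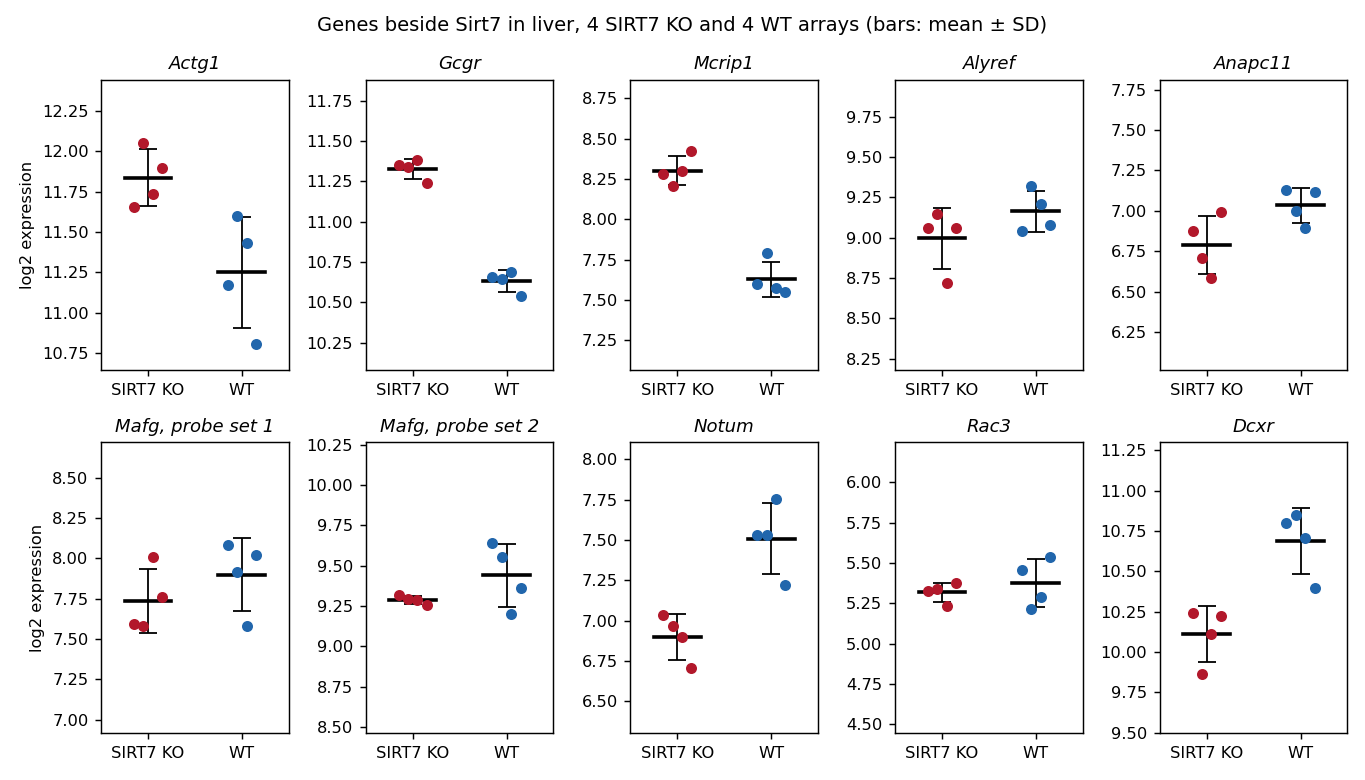
Log2 expression of the 10 probe sets of the genes beside Sirt7 on each SIRT7 KO array (red, left) and each WT array (blue, right), with the mean and SD of each group (n = 4); every vertical axis spans the same range of log2 units. The groups are apart for Actg1, Gcgr, Mcrip1, Notum and Dcxr and overlap for the other 5 probe sets.

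The remaining 5 probe sets, of 4 genes, lay below 0 in difference, and their groups overlapped. Anapc11 (1417326_a_at), the RING subunit of the anaphase-promoting complex, had 6.87, 6.71, 6.58 and 6.99 on the SIRT7 KO arrays, against 7.13, 7.00, 6.90 and 7.12 on the WT arrays. Only SIRT7 KO array 4 reached into the range of the WT arrays. The difference was -0.24 ± 0.10 (SE). Alyref (1417724_at), an adaptor that couples splicing to export of mRNA from the nucleus, shares its start region with Anapc11 as shown above. It had 9.06, 9.14, 8.72 and 9.06 on the SIRT7 KO arrays, against 9.04, 9.32, 9.21 and 9.08 on the WT arrays. Here SIRT7 KO array 3 was low and the other SIRT7 KO arrays lay within the WT range, giving a difference of -0.17 ± 0.11 (SE). SIRT7 KO array 3 was thus the lowest array for both genes of this pair.

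Mafg is the gene next after Sirt7, and it encodes a small Maf protein that binds DNA together with partners such as NRF2. Its first probe set (1434054_at) had 7.60, 7.58, 8.01 and 7.76 on the SIRT7 KO arrays, against 8.08, 7.91, 7.58 and 8.02 on the WT arrays. Its second (1448916_at) had 9.32, 9.29, 9.29 and 9.26 on the SIRT7 KO arrays, against 9.64, 9.55, 9.20 and 9.36 on the WT arrays. For both probe sets WT array 3 was the lowest WT array and lay at or below the lowest SIRT7 KO array. The differences were -0.16 ± 0.13 and -0.15 ± 0.096 (SE), so both probe sets gave a similar estimate.

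Rac3 (1420554_a_at), a GTPase of the Rac family that acts on the actin cytoskeleton, had 5.32, 5.34, 5.23 and 5.37 on the SIRT7 KO arrays, against 5.46, 5.22, 5.29 and 5.54 on the WT arrays. Its groups overlapped throughout, with a difference of -0.059 ± 0.084 (SE). The level lay below the median of all probe set means, so a change in Rac3 could be hidden by background. None of these 5 probe sets was called in any fit that left out 1 array.

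**Figure D2:**
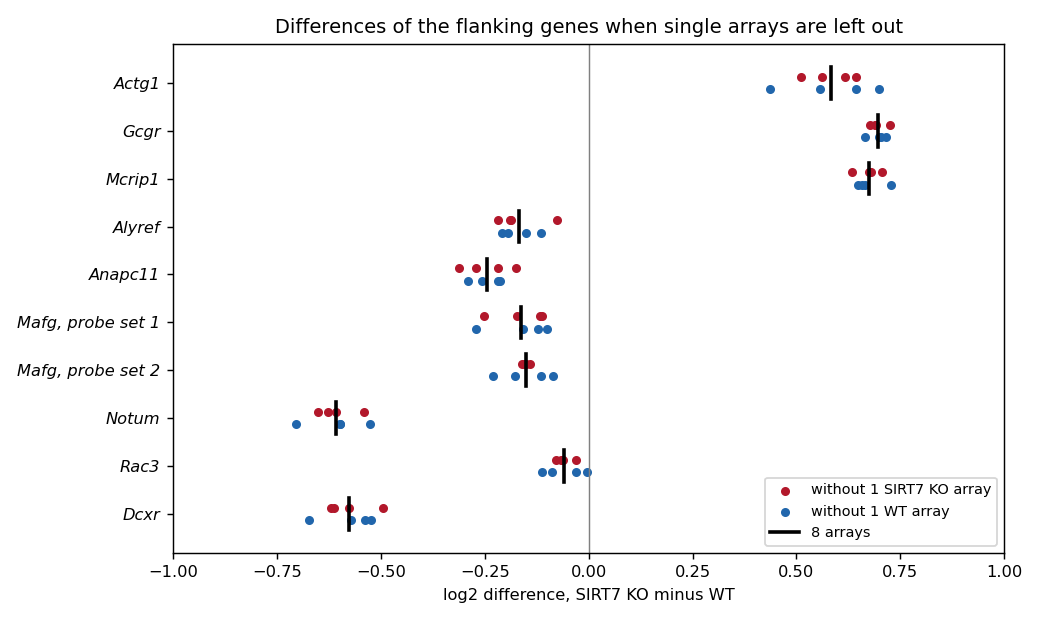
Log2 difference (SIRT7 KO minus WT) of each of the 10 probe sets with all 8 arrays (black bar) and with 1 SIRT7 KO array (red) or 1 WT array (blue) left out. Gcgr stays between 0.66 and 0.72, while Actg1 runs between 0.44 and 0.70, and every estimate keeps its sign.

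To set the listed genes against their surroundings, all protein-coding genes within 30 genes of Sirt7 on either side were examined. Of 60 such genes, 47 had a probe set with a single symbol, and 7 of their 71 probe sets were called (4 without WT array 1). Outside the list, the window held 61 probe sets of 38 genes, of which 2 were called (3.28%), those of P4hb and Pcyt2. On the whole array, 4.31% of probe sets were called. An unadjusted limma p under 0.05 was found for 8 of the 61, and for 3369 of all 22626 probe sets (14.9%).

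P4hb, which encodes protein disulfide isomerase of the endoplasmic reticulum, lies between Mcrip1 and Alyref. It had 13.65, 13.64, 13.63 and 13.66 on the SIRT7 KO arrays, against 12.98, 12.97, 13.04 and 13.20 on the WT arrays, a difference of 0.59 ± 0.069 (SE; limma, adjusted p = 0.0136). Its size is thus close to those of Gcgr and Mcrip1, with the 4 SIRT7 KO arrays nearly identical. Pcyt2, which encodes an enzyme of phosphatidylethanolamine synthesis, is the gene next before Sirt7. It had 6.61, 6.99, 6.81 and 6.52 on the SIRT7 KO arrays, against 11.27, 11.06, 11.54 and 10.98 on the WT arrays, a difference of -4.48 ± 0.14 (SE; limma, adjusted p = 9.2e-07). The loss of signal was as large as that of Sirt7 itself, whereas the 2 probe sets of Mafg, on the other side of Sirt7, had the small differences given above.

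Most called genes before Sirt7 were higher in SIRT7 KO livers, and those after it were lower. Before Sirt7, 4 probe sets were called higher (Actg1, Gcgr, Mcrip1 and P4hb) and 1 lower (Pcyt2) of 34, or 14.7%. After Sirt7, none was called higher and 2 were lower (Notum and Dcxr) of 37, or 5.41%. On the whole array, 4.31% of probe sets were called. The 37 probe sets after Sirt7 cover 25 genes, and 27 of the 37 lay below 0, as did 11502 of all 22626 probe sets. Whether the 2 sides differ was not tested. Genes lying between called ones were not all called themselves, since Aspscr1 and Cenpx, which lie between Notum and Dcxr, had differences of -0.0034 and -0.063. Next before Gcgr, Slc25a10, which encodes a mitochondrial dicarboxylate carrier, had differences of 0.42 ± 0.14 and 0.39 ± 0.18 (SE) in its 2 probe sets, with overlapping groups and without a call.

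Calls were densest close to Sirt7. Among the 10 genes on each side, 6 of 16 probe sets were called (37.5%), with a median size of the difference of 0.32. At 11 to 30 genes away, only Actg1 was called of 55 probe sets, and the median size was 0.090. At 31 to 100 genes away, 5 of 86 were called (5.81%), against 3.72% of 1532 on the rest of chromosome 11 and 4.42% of 18639 on other chromosomes. As the nearest bin holds 9 probe sets of the list, the shares describe where the calls lie and were not tested against each other.

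**Figure D3:**
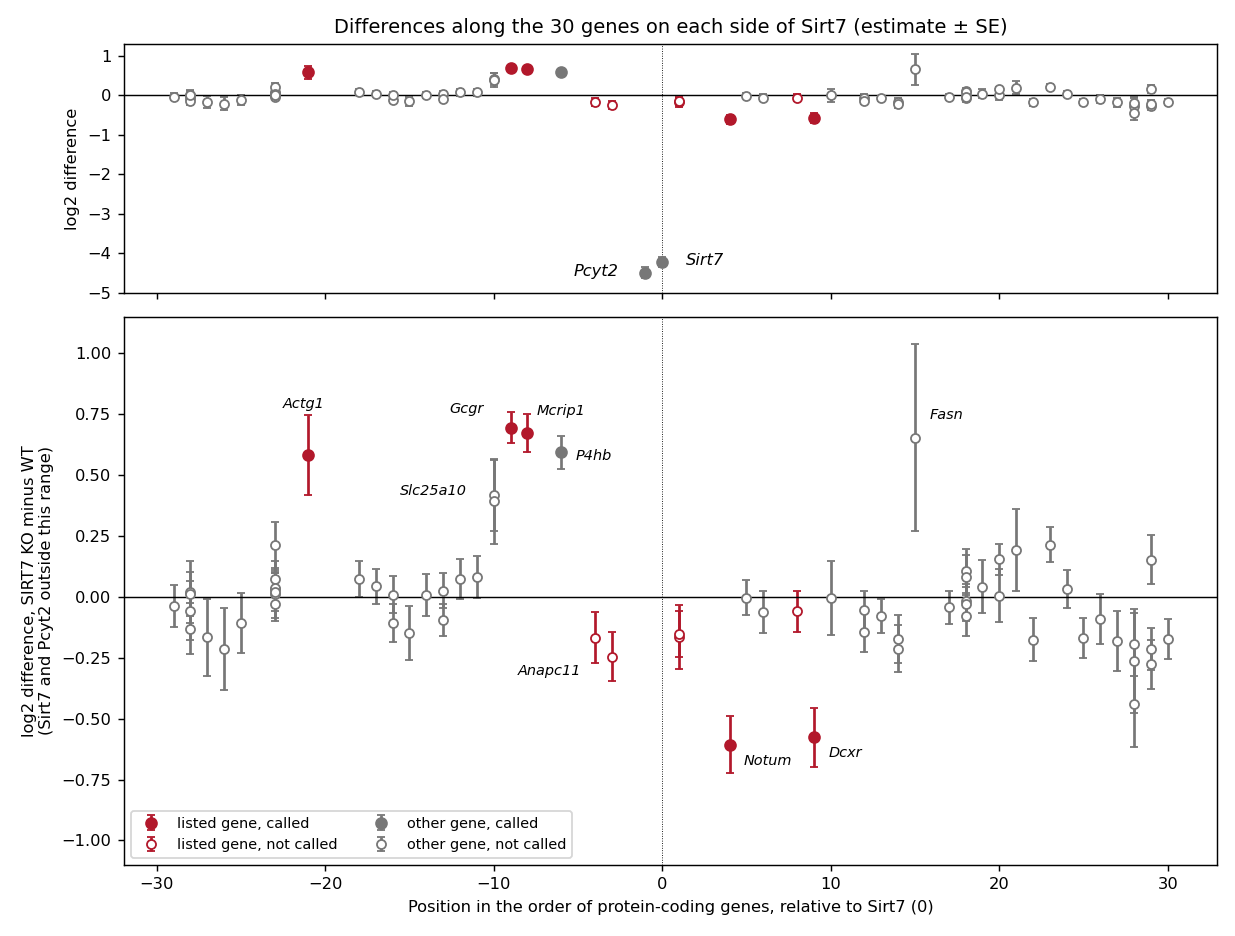
Log2 difference (SIRT7 KO minus WT, estimate ± SE) of every probe set within 30 protein-coding genes of Sirt7, by position in the gene order; the lower panel enlarges the range around 0. Filled symbols are called, red symbols are the listed genes and grey ones are all others, Sirt7 at 0 included. Gcgr, Mcrip1 and P4hb stand together at 0.59 to 0.70 before Sirt7, and Notum and Dcxr lie near -0.60 after it.

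Genes elsewhere in the genome with a pattern like that of Gcgr were looked for by the root mean square difference over the 8 arrays, each gene set relative to its WT mean. The 3 most alike were Cystm1 (0.0995), Plekha1 (0.103) and Mcrip1 (0.111). Mcrip1, the neighbour of Gcgr, was therefore the third nearest of all other genes. Their differences were 0.64, 0.62 and 0.67, and since they were picked for this likeness the values are a description.

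Next, the genes known to work with the neighbours were examined in 8 lists, which held 132 measured genes of 150 listed. Of all 12393 genes, each taken by its brightest probe set, 4.65% were called. In the lists 9 of 132 genes were called (6.82%), 6 of them higher and 3 lower. This count was 0 once SIRT7 KO array 4 was left out, 4 or 5 when any other SIRT7 KO array was and 1 when WT array 1 was. These lists were drawn up with earlier results of these arrays known and are described only by their counts and medians. The median difference over all genes was -0.0031.

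Of 23 measured genes of glucagon receptor signalling and its targets, 6 had an unadjusted p under 0.05, in both directions, against 15.6% of all genes. The list median was 0.0033. Only 1 of the 23 was called, higher in SIRT7 KO livers. It was Gnb1, a G protein beta subunit, with 9.10, 9.04, 8.95 and 9.09 in SIRT7 KO livers, against 8.68, 8.80, 8.79 and 8.56 in WT livers (difference 0.34 ± 0.075 SE, limma adjusted p = 0.0831). Pck1 and G6pc, enzymes of gluconeogenesis and textbook targets of glucagon, had differences of 0.34 (adjusted p = 0.614) and 0.22 (adjusted p = 0.662) and were not called. Among the 8 measured ERK and CtBP partners of Mcrip1 none was called by limma, 1 having an unadjusted p under 0.05, with a median of 0.015. The smallest p there was that of Cdh1, or E-cadherin, with a difference of 0.63 ± 0.18 (SE; adjusted p = 0.151) and groups that overlapped. In 6 of 18 alternatives this list held 1 call, among them the fits without SIRT7 KO array 1 and without WT array 4.

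Around Notum, 3 of 27 measured genes of Wnt secretion, reception and targets fell in SIRT7 KO livers and none rose. Of all 12393 genes, 307 were called lower and 269 higher. The list median was -0.097, and 8 of the 27 lay above 0. With 1 array left out, this list held between 0 calls (without SIRT7 KO array 4) and 3 (without WT array 3). Rnf43, a ubiquitin ligase that removes Wnt receptors and is itself a Wnt target, had 6.04, 6.50, 6.09 and 6.02 in SIRT7 KO livers, against 7.27, 6.87, 6.78 and 6.69 in WT livers (difference -0.74 ± 0.15 SE, limma adjusted p = 0.0641). Lect2, a hepatic secreted protein, fell by 0.36 (SE 0.074, adjusted p = 0.069), and Cyp1a2, a cytochrome of pericentral hepatocytes, fell by 0.54 (SE 0.13, adjusted p = 0.098). The groups did not overlap in any of these 3 genes, a pattern seen in 1215 of all 12393 genes. Glul and Axin2, in the same list, had differences of 0.11 and -0.078 and were not called.

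Around Actg1, 3 of 25 measured actins and actin-binding proteins rose and none fell, with a list median of 0.098. Of all 12393 genes, 269 were called higher and 307 lower. With 1 array left out, this list held between 0 calls (without SIRT7 KO array 4 or without WT array 1) and 3 (without WT array 3). Tpm4, a tropomyosin, rose by 0.37 (SE 0.080, adjusted p = 0.0795), Capg, which caps actin filaments, by 0.54 (SE 0.15, adjusted p = 0.14), and Acta2, smooth muscle actin, by 0.61 (SE 0.16, adjusted p = 0.128), although the Acta2 groups overlapped.

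The other 4 lists, of 8, 16, 16 and 9 measured genes, held 2 calls in all, where 4.65% of all genes were called. Mafk, another small Maf protein, rose by 0.39 (SE 0.078, adjusted p = 0.0641) among 8 small Maf and CNC factors. Ddx39b, an RNA helicase that loads Alyref onto mRNA, rose by 0.27 (SE 0.074, adjusted p = 0.133) among 16 mRNA export genes. None of the 16 genes of the anaphase-promoting complex was called by limma, 2 had an unadjusted p under 0.05, and the smallest p was that of Cdc27 (difference 0.26, adjusted p = 0.285). The Cdc27 means of 4.31 in SIRT7 KO and 4.05 in WT livers lay below the lower quartile of probe set means, 4.56. In the glucuronate and xylulose pathway of Dcxr none of 9 was called by limma, 1 had an unadjusted p under 0.05, and the smallest p was that of Xylb (difference -0.20, adjusted p = 0.26).

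**Figure D4:**
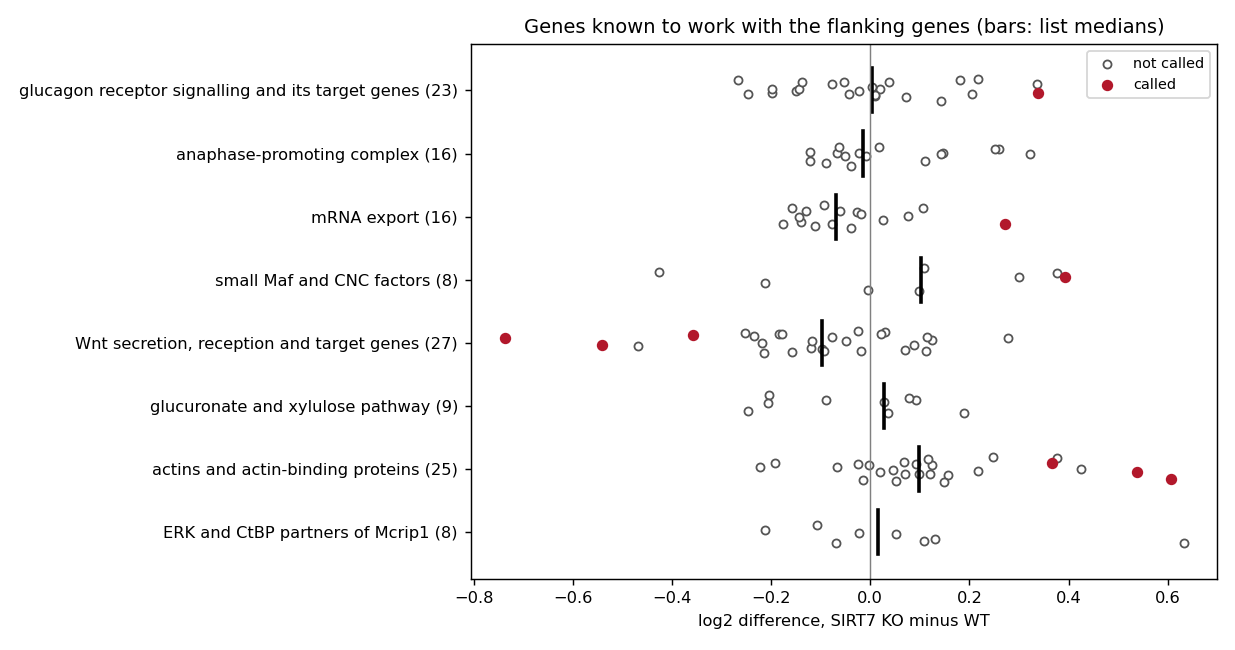
Log2 difference (SIRT7 KO minus WT) of every measured gene in 8 lists of genes that work with the neighbours of Sirt7, with the number measured in brackets; filled symbols are called and black bars are list medians. Called genes lie above 0 in the actin list, with a median of 0.098, and below 0 in the Wnt list, with a median of -0.097.

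Whole liver holds several cell types, and in such samples fewer cells of a type and less RNA per cell cannot be told apart. The 6 measured hepatocyte markers, Alb among them, had a mean level of 14.37 to 14.38 on the SIRT7 KO arrays and 14.42 to 14.48 on the WT arrays. All 6 lay below 0 in difference, from -0.17 for Cps1 to -0.0001 for Alb, and none was called. Stellate markers ran from 6.78 to 7.12 in SIRT7 KO and from 6.57 to 6.90 in WT livers, with 0 of 5 called by limma. An unadjusted p under 0.05, found for 15.6% of all genes, was seen for 2 of them in opposite directions, Col1a1 at 0.21 and Reln at -0.20. The Col1a1 means of 4.46 in SIRT7 KO and 4.25 in WT livers lay below the lower quartile of probe set means, 4.56. Endothelial markers ran from 7.47 to 7.65 in SIRT7 KO and from 7.22 to 7.54 in WT livers, and 1 of 5, Lyve1, rose by 1.21 (limma, adjusted p = 0.0463). The other endothelial markers were not called, with differences of -0.13 for Stab2, -0.088 for Kdr, -0.065 for Cdh5 and 0.056 for Pecam1, and the list median was -0.065. The 6 macrophage markers all lay above 0 in difference, at 8.71 to 9.65 in SIRT7 KO and 8.55 to 9.45 in WT livers, and 0 were called. Among the 4 markers of T and NK cells, Cd3g fell by 0.39 (limma, adjusted p = 0.137), although its groups overlapped. Its SIRT7 KO mean of 4.38 lay below the lower quartile of probe set means, 4.56. The other T and NK markers were not called, with differences of 0.13 for Cd8a, -0.030 for Cd3e and -0.24 for Nkg7. Of the remaining lists, 0 of 4 cholangiocyte, 0 of 3 B cell and 0 of 2 neutrophil markers were called or had an unadjusted p under 0.05. The neutrophil markers differed widely between arrays within each group. S100a8 had 6.53, 5.22, 7.13 and 11.41 on the SIRT7 KO arrays, against 5.85, 12.22, 11.56 and 5.62 on the WT arrays. S100a9 was likewise high on SIRT7 KO array 4 and on WT arrays 2 and 3, and the part of this in the values of the neighbours was not tested. Actin genes are used by these cells too, and the part of cell composition in the values of Actg1 and its partners was not tested. The 3′ control probe sets of GAPDH exceeded those at its 5′ end, a gap that widens as RNA degrades, by 0.11 ± 0.082 in SIRT7 KO and 0.22 ± 0.055 in WT livers (SD, n = 4 each; exact two-sided permutation p = 0.0286, the smallest that 4 against 4 arrays allow). The part of RNA quality in the differences was not tested.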

How the data were processed

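The authors deposited log2 expression values, 1 for each probe set and array, made from Affymetrix mouse arrays by background correction, normalization and summarising of probes. RMA is named in the methods but GCRMA in the submitters' processing notes, and the choice between them is unsettled. The values were used as deposited. Of 22690 probe sets, 64 Affymetrix controls were left out, and names came from the platform annotation provided by GEO, with 1 symbol for 20380 of the tested probe sets. Gene order came from the GRCm38.p6 gene table.

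The difference SIRT7 KO minus WT was fitted in limma (version 3.58.1, R 4.3.3) on genotype alone, with two-sided tests and Benjamini-Hochberg adjustment over all 22626 probe sets. An adjusted p under 0.15 was called, the rate named in the methods. The code was tested on simulated data. The 4 arrays of each group limit precision. Array medians lay between 6.30 and 6.36, and no pair was identical. Levels of individual genes were not compared with each other, only with the median or lower quartile of all probe set means.

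The neighbours, partner lists and marker lists were chosen with earlier results of these data known. The genes named are all members, Sirt7 and its nearest neighbours, called genes of the window whose groups do not overlap, up to 3 called genes for each list or else the one with the smallest p, and the 3 genes most like Gcgr. Slc25a10, Aspscr1, Cenpx, Pck1, G6pc, Glul, Axin2, Fasn and the cell type markers were named after their values were seen. One further partner list is not reported here. Alternatives were a threshold of 0.05, other variance models, array weights, further scaling, a filter on dim probe sets, a replicate block and leaving out arrays.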

Additional observations from a re-analysis of the deposited data

How the results depend on the processing

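Over 24 results and 421 comparisons with an alternative, 345 kept direction and side of the threshold (or a count within 1.5 times), 14 lost a call, 1 turned its sign and 61 moved. At an adjusted p under 0.05, 2 of the neighbours' probe sets were called (0 lower), 4 of the window around Sirt7 and 0 genes of the partner lists. At that threshold, 156 of all 22626 probe sets and 94 of all 12393 genes were called. With the replicate number as a block, the lists held 4 calls against 9, the whole array 628 against 975, and the neighbours still 5. Arrays of the same number were correlated at 0.26, -0.25, -0.16 and 0.15, so the numbers were not taken as pairs, and not every array was closest to its own number. Without the 10 listed genes the window held 2 calls. An alternative chosen after seeing the data left out SIRT7 KO arrays 3 and 4 and WT array 4, which the second principal component set apart. It left 1 call in the lists, 4 among the neighbours and 517 on the whole array, with a Rac3 difference of 0.0093. With 1 array left out, calls ran between 2 and 5 among the neighbours (2 without WT array 1, 3 without SIRT7 KO array 4), between 2 and 3 for those higher, between 0 and 2 for those lower, between 4 and 8 in the window and between 0 and 8 in the lists (0 without SIRT7 KO array 4, 1 without WT array 1). Calls on the whole array ran between 222 (without WT array 1) and 900 (without WT array 4) in those fits. Sirt7 itself stayed called in every alternative, and so did Gcgr and Mcrip1. Apart from the smaller number of arrays, the cause of these shifts was not tested. Dim probe sets such as that of Rac3 are limited by background.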

Other observations

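The mean of the 45 spike-in control probe sets was 8.52 ± 0.098 on the SIRT7 KO arrays and 8.68 ± 0.063 on the WT arrays (SD, n = 4 each; exact two-sided permutation p = 0.0286, the smallest possible). Array medians did not separate the genotypes, at 6.34 ± 0.012 in SIRT7 KO and 6.34 ± 0.027 in WT livers (exact two-sided permutation p = 0.83). Fasn, the fatty acid synthase gene 15 genes beyond Sirt7, had 11.84, 12.16, 11.33 and 12.00 in SIRT7 KO livers, against 11.29, 10.75, 12.36 and 10.32 in WT livers. Its WT arrays spread over the whole range of the SIRT7 KO arrays and beyond, so that a difference of 0.65 ± 0.38 (SE), close in size to that of Gcgr, was not called (limma, adjusted p = 0.485).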
